A study of Rattus norvegicus with 9 samples.

Results

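Ptpn4, Zfp536, Nf1, Cdo1, Tmem179 and Alx4 are 6 rat genes, of 21486 in the deposited table and 15659 tested, that were chosen from these same libraries because they were lowest in a fibre-filled nerve conduit that carried no added molecules. They were chosen by their levels in the 3 conduit groups and because they stand on no glial marker list, so their differences between groups are given as a description, with no test. All 6 were measured in poly(A) RNA from tissue that had grown inside conduits bridging a 2 cm gap in the rat sciatic nerve, taken at day 14. The AFMC-AA-SP conduit held aligned fibers and lengthwise microchannels, with spermidine adsorbed on the fiber surface and L-ascorbic acid inside the fibers. The AFMC conduit held the same fibers and microchannels without either molecule, and the Hollow conduit was a tube with an empty lumen. Each group had 3 libraries with replicate numbers 1 to 3. The labels give no strain, sex or age, and do not say which animals the libraries came from, so a p-value here measures only the spread between these libraries, which may be technical. The series text names the comparison of AFMC with Hollow as the one for structural guidance and that of AFMC-AA-SP with AFMC as the one for the added molecules.

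The 6 genes belong to no single pathway. Nf1 encodes neurofibromin, a GTPase-activating protein that switches Ras off and so restrains the Ras-ERK cascade; its loss in the Schwann cell lineage, the glia that guide and myelinate axons of peripheral nerve, gives rise to neurofibromas. Ptpn4 encodes a cytosolic tyrosine phosphatase with FERM and PDZ domains, Zfp536 a zinc finger protein known in mouse cells as a repressor of retinoic acid-induced neuronal differentiation, and Alx4 a homeodomain transcription factor of limb and craniofacial mesenchyme. Cdo1 encodes cysteine dioxygenase, which oxidises cysteine to cysteine sulfinate on the way to taurine and is abundant in liver and fat. Tmem179 encodes a transmembrane protein.

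Promoter sequence was at hand for Zfp536, Nf1 and Tmem179. It is shown because these genes, all lowest in AFMC, differed in how AFMC-AA-SP stood to Hollow, and the windows let their letters be compared. RefSeq on build GRCr8 places these windows, from 250 bases before to 50 after the start of each gene, at chr1:99598994-99599293 (minus strand, Zfp536), chr10:64804016-64804315 (plus strand, Nf1) and chr6:137401389-137401688 (minus strand, Tmem179). Each is written 5′ to 3′, and the capitals mark ACAAT, the core letters recognised by SOX factors.
Zfp536: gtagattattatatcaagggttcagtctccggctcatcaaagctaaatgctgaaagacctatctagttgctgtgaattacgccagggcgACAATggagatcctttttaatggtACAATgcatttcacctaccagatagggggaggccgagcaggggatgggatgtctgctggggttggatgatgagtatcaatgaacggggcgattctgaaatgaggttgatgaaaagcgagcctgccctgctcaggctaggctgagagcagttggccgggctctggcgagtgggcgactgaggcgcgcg
Nf1: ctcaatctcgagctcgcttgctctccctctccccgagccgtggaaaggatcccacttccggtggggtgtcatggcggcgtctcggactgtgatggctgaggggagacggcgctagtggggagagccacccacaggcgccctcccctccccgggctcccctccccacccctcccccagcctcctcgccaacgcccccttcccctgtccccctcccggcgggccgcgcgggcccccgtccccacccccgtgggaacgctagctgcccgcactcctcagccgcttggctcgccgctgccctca
Tmem179: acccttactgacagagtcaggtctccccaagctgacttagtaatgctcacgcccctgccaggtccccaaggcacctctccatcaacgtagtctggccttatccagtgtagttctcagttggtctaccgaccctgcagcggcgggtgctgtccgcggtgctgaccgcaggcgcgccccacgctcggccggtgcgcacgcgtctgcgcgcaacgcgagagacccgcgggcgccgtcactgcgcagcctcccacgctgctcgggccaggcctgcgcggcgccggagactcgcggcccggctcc
The letters ACAAT were found 2 times in the Zfp536 window, 161 and 137 bases before the start on the printed strand, and on neither strand of the other windows. Among 33469 promoters of the same length, 33.7% held ACAAT at least once on either strand. The GC box letters GGGCGG were in none of the 3 windows and in 33.1% of all promoters. The same was true of the TATA box, searched as TATAAA, which 14.2% of all promoters held, and of the AP-1 site, searched as TGAGTCA, which 4.63% held. Each search covered both strands. The GC content was 52.3% for Zfp536, 73% for Nf1 and 69% for Tmem179, against a median of 51.7% over all promoters. CpG dinucleotides numbered 13 for Zfp536, 26 for Nf1 and 34 for Tmem179, against a median of 7. Nf1 and Tmem179, which differ in their order of groups, thus both had CpG-rich windows, while that of Zfp536 was near the median in GC content. Ptpn4, Cdo1 and Alx4 are named only.

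Library totals ran from 18314489 to 26074134 counts. The quasi-likelihood test of edgeR called 0 genes at an adjusted p under 0.05 in each comparison (0% of those tested), and the smallest adjusted p was 0.102 for AFMC against Hollow, 0.0553 for AFMC-AA-SP against AFMC and 0.108 for AFMC-AA-SP against Hollow. At an unadjusted p under 0.05 the same test had 1739 genes lower (11.1%) and 1316 higher (8.4%) in AFMC than in Hollow, 1129 lower (7.21%) and 1579 higher (10.1%) in AFMC-AA-SP than in AFMC, and 242 lower (1.55%) and 265 higher (1.69%) in AFMC-AA-SP than in Hollow. DESeq2, at an adjusted p under 0.05, called 605 lower (4.34%) and 408 higher (2.93%), 122 lower (0.93%) and 448 higher (3.41%), and 1 lower (0.00467%) and 7 higher (0.0327%) in the same comparisons. The DESeq2 shares are of the 13948, 13123 and 21427 genes to which it gave an adjusted p in those comparisons, and not of the 15659. Without AFMC replicate 2, the edgeR test called 894 genes in AFMC against Hollow and 579 in AFMC-AA-SP against AFMC. Without AFMC replicate 1 it called 5 and 4, and without AFMC replicate 3 it called 0 and 3. AFMC replicate 3 was an isolated library on principal component 1 (32.9% of the variance), with a score of 72.3 where the other 8 libraries ran from -23.5 to 9.93, and values without it are given beside those of the 6 genes. The tissue label of nerve was checked with 12 Schwann cell markers, all of which had counts in all 9 libraries.

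In each of the 6 genes all 3 AFMC libraries lay below the other 6, in CPM (counts scaled to an adjusted library total) and in FPKM. FPKM also divides by gene length, which does not change the order of libraries within a gene. Over the genes tested, 1186 (7.57%) had all 3 AFMC libraries below the other 6 in CPM and 1632 (10.4%) in FPKM. All 3 AFMC libraries were above the other 6 in CPM in 728 tested genes (4.65%). The name given to the 6 genes, low in AFMC and level elsewhere, held for only 2 of them. Ptpn4 and Nf1 had overlapping values in AFMC-AA-SP and Hollow, an order that 1081 tested genes (6.9%) also had. Zfp536 and Alx4 were lower in all 3 AFMC-AA-SP libraries than in all 3 Hollow libraries, as were 777 tested genes (4.96%). Cdo1 and Tmem179 were higher in all 3 AFMC-AA-SP libraries than in all 3 Hollow libraries, as were 791 tested genes (5.05%). The results follow these 3 orders.

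**Figure D1:**
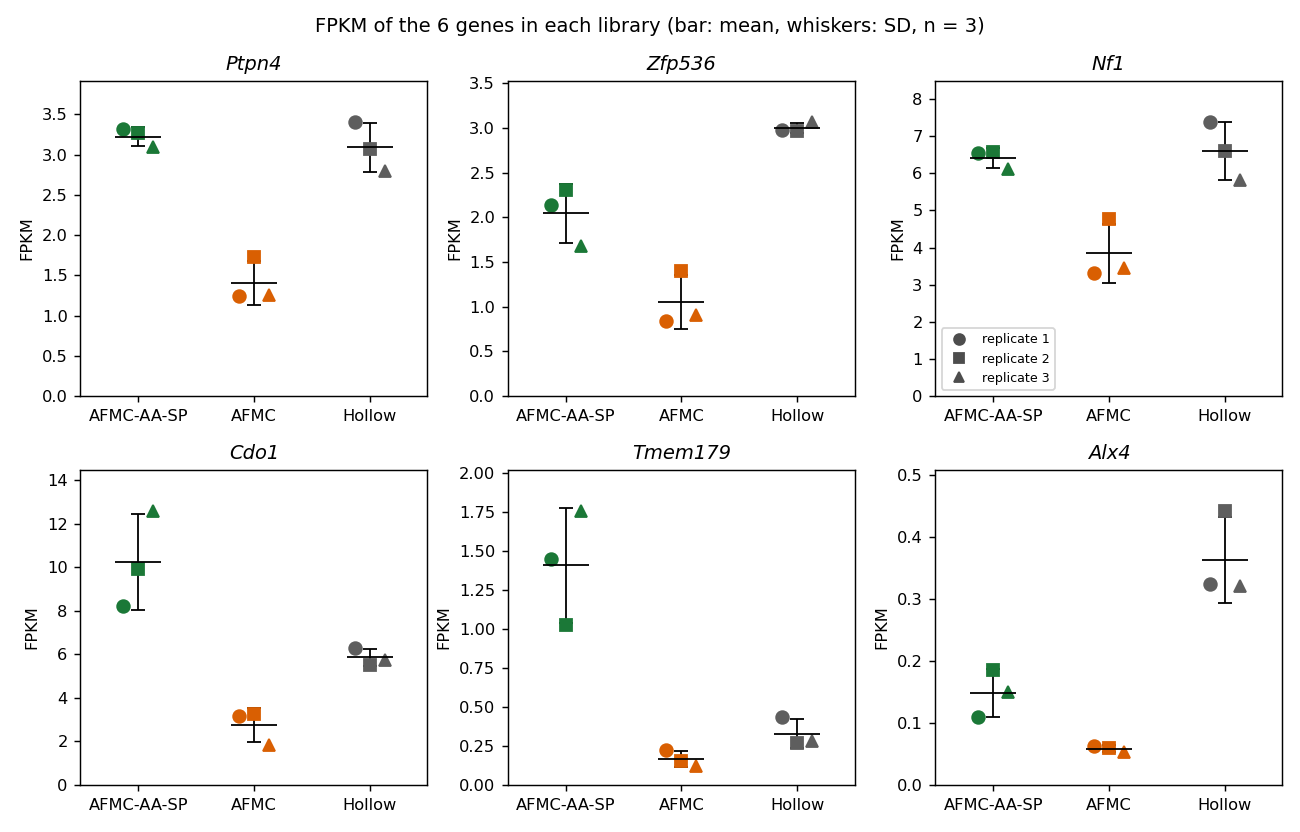
FPKM of each gene (y axis, from 0) by conduit group (x axis), with 1 point per library, marker shapes for the replicate number, and the mean and SD of 3 libraries. The 3 AFMC libraries are the lowest in every panel, while AFMC-AA-SP overlaps Hollow only for Ptpn4 and Nf1, lies below it for Zfp536 and Alx4, and above it for Cdo1 and Tmem179.

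Ptpn4 and Nf1 were low in AFMC and met in the other groups. Nf1 (ENSRNOG00000013780) is annotated at chr10:64306301-64536658 on the plus strand, in the coordinates of the deposited table, whose build is not given in the sources used here and is not GRCr8. Nf1 had 6.55, 6.58 and 6.10 FPKM in AFMC-AA-SP replicates 1 to 3, 3.33, 4.76 and 3.44 FPKM in AFMC, and 7.37, 6.59 and 5.81 FPKM in Hollow. The AFMC-AA-SP values fell inside the range of the Hollow values, and the highest AFMC library, replicate 2, was still below the lowest of the others. Nf1 averaged 3.84 ± 0.80 FPKM in AFMC and 6.59 ± 0.78 FPKM in Hollow (SD, n = 3 each), and 6.41 ± 0.27 FPKM in AFMC-AA-SP. The log2 fold change was -0.73 ± 0.14 (SE) for AFMC against Hollow and 0.68 ± 0.14 for AFMC-AA-SP against AFMC, while AFMC-AA-SP against Hollow gave -0.04 ± 0.14, smaller than its own error. These comparisons share libraries, so a low AFMC level gives the first a negative and the second a positive sign.

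Ptpn4 (ENSRNOG00000002625, chr13:30776682-30952170, minus strand) followed the same order at a lower level per length. Ptpn4 had 3.31, 3.26 and 3.09 FPKM in AFMC-AA-SP, 1.25, 1.72 and 1.25 FPKM in AFMC, and 3.40, 3.07 and 2.80 FPKM in Hollow. AFMC replicate 2 was again the highest of its group, and AFMC-AA-SP and Hollow overlapped. The log2 fold change was -1.08 ± 0.13 for AFMC against Hollow, 1.14 ± 0.13 for AFMC-AA-SP against AFMC and 0.06 ± 0.13 for AFMC-AA-SP against Hollow. Of all pairs among the 6 genes, Ptpn4 and Nf1 had the most similar profiles, with a root mean square difference of 0.19 between their log2 CPM profiles, each centred on its own mean over the 9 libraries.

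Zfp536 and Alx4 were lowest in AFMC, intermediate in AFMC-AA-SP and highest in Hollow. Zfp536 (ENSRNOG00000014163, chr1:90002858-90462990, minus strand) had 2.14, 2.31 and 1.68 FPKM in AFMC-AA-SP, 0.846, 1.40 and 0.911 FPKM in AFMC, and 2.97, 2.97 and 3.06 FPKM in Hollow. No library of one group reached into another, and the Hollow libraries lay closest together. The log2 fold change was -1.46 ± 0.19 for AFMC against Hollow, 0.90 ± 0.19 for AFMC-AA-SP against AFMC and -0.56 ± 0.19 for AFMC-AA-SP against Hollow. The level in the loaded conduit was thus 0.678 times that in the empty tube for Zfp536, against 0.969 times for Nf1 and 1.04 times for Ptpn4.

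Alx4 (ENSRNOG00000000008, chr3:79611719-79648260, plus strand) was near the limit of detection in the fibre conduits. It had 4, 7 and 5 counts in AFMC-AA-SP, 3, 2 and 2 counts in AFMC, and 13, 15 and 13 counts in Hollow, which came to 0.109 to 0.185, 0.0527 to 0.0635 and 0.321 to 0.442 FPKM in those groups. The groups did not overlap, but the low-count filter, which lay at 0.48 CPM, was passed by all 3 Hollow libraries and by no library of the other groups, so Alx4 was tested only because it was higher in Hollow. The ratio of summed counts, scaled by library size, was 0.171 for AFMC over Hollow (exact 95% counting interval 0.0647 to 0.385), 2.42 for AFMC-AA-SP over AFMC (0.944 to 6.97) and 0.414 for AFMC-AA-SP over Hollow (0.217 to 0.754). The interval for AFMC-AA-SP over AFMC includes equal levels, so a difference between the fibre conduits was not detectable in Alx4 at this depth. These intervals cover counting error only, since reads without molecular identifiers are not independent molecules.

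Cdo1 and Tmem179 were lowest in AFMC, intermediate in Hollow and highest in AFMC-AA-SP. Cdo1 (ENSRNOG00000000158, chr18:39432474-39447296, minus strand) had 8.23, 9.93 and 12.6 FPKM in AFMC-AA-SP, 3.15, 3.26 and 1.84 FPKM in AFMC, and 6.31, 5.52 and 5.75 FPKM in Hollow. The groups did not overlap, and AFMC replicate 3 was the lowest library. The log2 fold change was -1.04 ± 0.23 for AFMC against Hollow, 1.84 ± 0.23 for AFMC-AA-SP against AFMC and 0.80 ± 0.22 for AFMC-AA-SP against Hollow. Cdo1 was the most abundant of the 6 genes per length in AFMC-AA-SP, at 10.3 ± 2.2 FPKM (SD, n = 3). Its mean FPKM stood at the 62.0 percentile of the tested genes there, the 31.9 percentile in AFMC and the 47.1 percentile in Hollow.

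Tmem179 (ENSRNOG00000013128, chr6:131569290-131580305, minus strand) had 70, 51 and 77 counts in AFMC-AA-SP, 14, 7 and 6 counts in AFMC, and 23, 12 and 15 counts in Hollow. Per length this was 1.45, 1.02 and 1.75 FPKM in AFMC-AA-SP, 0.224, 0.156 and 0.120 FPKM in AFMC, and 0.434, 0.268 and 0.280 FPKM in Hollow. The loaded conduit stood far above the rest, and AFMC lay just under Hollow, with AFMC replicate 1 close to the lower Hollow libraries. The ratio of scaled counts was 7.78 for AFMC-AA-SP over AFMC (exact 95% counting interval 5.19 to 12.1), 4.202 for AFMC-AA-SP over Hollow (3.07 to 5.85) and 0.540 for AFMC over Hollow (0.325 to 0.880). In this gene the high level in AFMC-AA-SP was the larger departure, with a log2 fold change of 2.09 ± 0.33 against Hollow, beside -0.89 ± 0.37 for AFMC against Hollow.

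Over the 6 genes the median log2 fold change was -1.06 for AFMC against Hollow, 1.19 for AFMC-AA-SP against AFMC and 0.01 for AFMC-AA-SP against Hollow, where all tested genes had medians of 0.01, -0.01 and 0.00. The median near 0 for AFMC-AA-SP against Hollow covers values from -1.27 for Alx4 to 2.09 for Tmem179. DESeq2 called 4 of the 6 lower in AFMC than in Hollow (Ptpn4, Zfp536, Nf1 and Cdo1, background 4.34%), the same 4 higher in AFMC-AA-SP than in AFMC (background 3.41%) and Tmem179 higher in AFMC-AA-SP than in Hollow (background 0.0327%), and edgeR called none. DESeq2 gave no adjusted p to Alx4 in the comparisons with AFMC or to Tmem179 in AFMC-AA-SP against AFMC. Since the genes were picked for this order, no weight attaches to these counts. Ranked from the lowest of 15659 genes by the AFMC level minus the mean of the other groups on the log2 scale, Tmem179 was at 18, Alx4 (tested only through its Hollow level) at 22, Cdo1 at 61, Zfp536 at 126, Ptpn4 at 157 and Nf1 at 541. The 6 genes were therefore not the 6 lowest in AFMC.

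**Figure D2:**
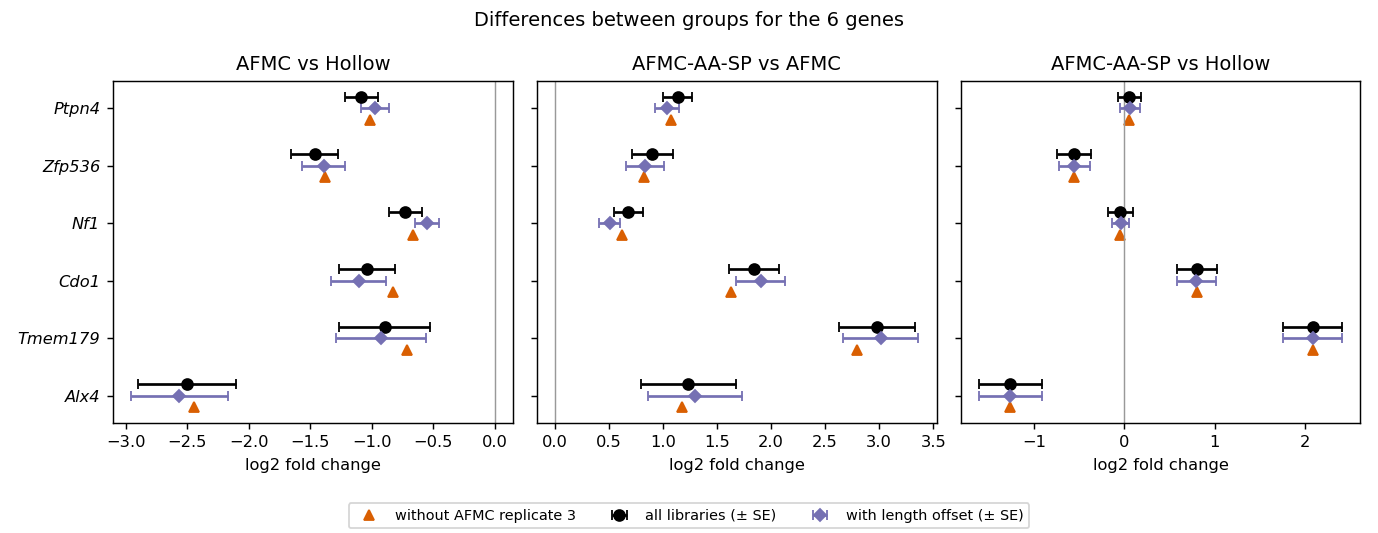
Log2 fold change of each gene (x axes) in the 3 comparisons, from all 9 libraries with SE bars (circles), with an offset for gene length with SE bars (diamonds) and without AFMC replicate 3 (triangles). Every value for AFMC against Hollow is below 0 and every value for AFMC-AA-SP against AFMC is above 0, while AFMC-AA-SP against Hollow spreads from -1.27 for Alx4 to 2.09 for Tmem179.

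The libraries differed by gene length, so length is given beside these values. For each library, the deviation of every gene from its mean log2 CPM was ranked against gene length, and the Spearman rho across genes was -0.31, -0.03 and -0.19 in AFMC replicates 1 to 3. It was 0.18, 0.16 and 0.04 in AFMC-AA-SP and 0.25, 0.08 and 0.01 in Hollow, so all AFMC libraries were negative and the other 6 positive, and AFMC replicate 2 was the AFMC library nearest to 0. The median log2 fold change for AFMC against Hollow was 0.14 in the shortest 10% of tested genes and -0.16 in the longest, and for AFMC-AA-SP against AFMC -0.14 in the shortest and 0.16 in the longest.

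The 6 genes fell on both sides of the median length of 2.96 kb. Nf1 (9.46 kb, 96.7 percentile), Ptpn4 (5.95 kb, 87.0 percentile) and Zfp536 (4.72 kb, 77.6 percentile) were long, and Tmem179 (2.40 kb), Alx4 (1.81 kb) and Cdo1 (1.66 kb) were short. The long genes also had the largest genomic spans, 460 kb for Zfp536, 230 kb for Nf1 and 175 kb for Ptpn4, and the short ones spanned 36.5 kb (Alx4), 14.8 kb (Cdo1) and 11.02 kb (Tmem179). With an offset for gene length in the fit, the log2 fold change for AFMC against Hollow was -0.97 for Ptpn4, -1.39 for Zfp536 and -0.55 for Nf1, all nearer to 0 than without the offset. It was -1.11 for Cdo1, -0.92 for Tmem179 and -2.56 for Alx4, all further from 0. All 6 genes kept the order of 3 AFMC libraries below the other 6 with the offset. This is a description only, since a low AFMC level chose them and Alx4 was tested only through its Hollow level. Of the 1186 genes with all 3 AFMC libraries lowest in CPM, 820 kept that order with the offset, which 892 tested genes (5.70%) had in all.

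The place of each gene among genes of like length is a description only, since the same low AFMC level chose it. Within its own decile of length, 5.43% of genes were as low as Nf1 or lower in AFMC against Hollow, 2.04% as low as Tmem179, 1.47% as low as Cdo1, 1.28% as low as Ptpn4 and 0.319% as low as Zfp536. Within its decile of genomic span these shares were 9.45% for Nf1, 1.66% for Tmem179, 1.09% for Cdo1, 3.51% for Ptpn4 and 0.958% for Zfp536, larger than by length for the 3 long genes. No share is given for Alx4, which was among the tested genes only through its Hollow level. Without AFMC replicate 3 the log2 fold change was -1.02 for Ptpn4, -1.38 for Zfp536, -0.66 for Nf1, -0.82 for Cdo1, -0.71 for Tmem179 and -2.44 for Alx4. With that library left out and the offset kept, it was -0.92, -1.32, -0.50, -0.90, -0.74 and -2.51 in the same order of genes. For AFMC-AA-SP against AFMC the offset gave 1.03 for Ptpn4, 0.83 for Zfp536, 0.51 for Nf1, 1.90 for Cdo1, 3.01 for Tmem179 and 1.29 for Alx4.

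**Figure D3:**
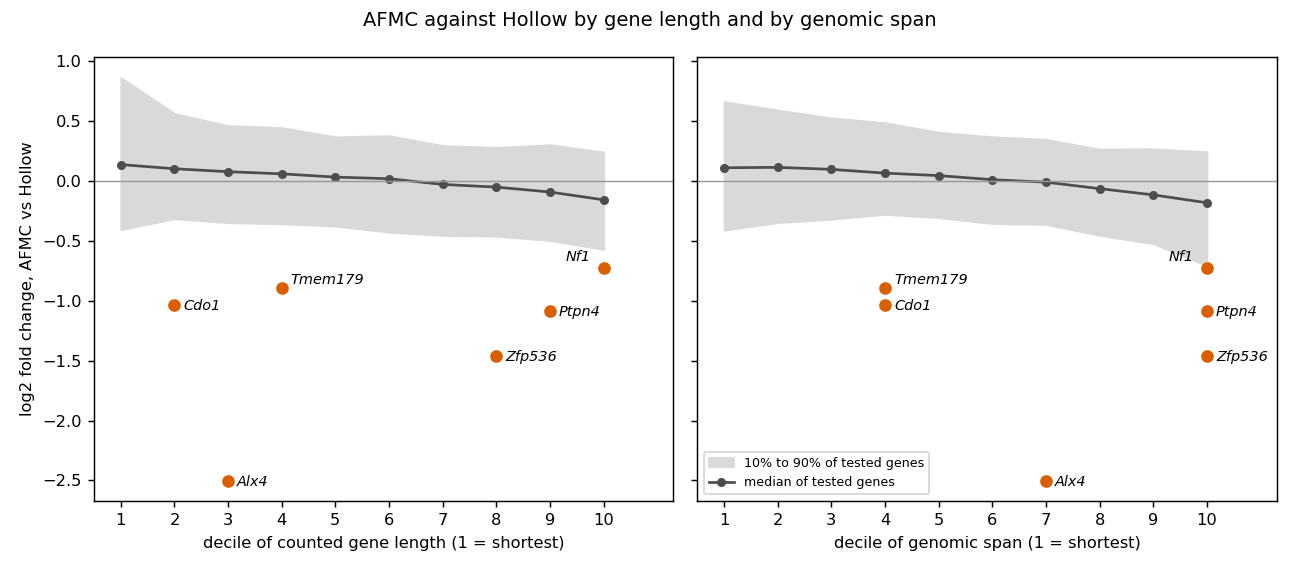
Log2 fold change of AFMC against Hollow (y axis) by decile of gene length (left) and of genomic span (right), with the median and the range from 10% to 90% of tested genes in grey and the 6 genes in orange. The median declines from 0.14 in the shortest genes to -0.16 in the longest, and all 6 genes lie below the grey band at their own length, with Nf1 nearest to it. Their place is a description only, since a low AFMC level chose them and Alx4 was tested only through its Hollow level.

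Markers of some cell types also varied with the groups. In bulk tissue, fewer cells of a type and less RNA per cell cannot be told apart. The 12 Schwann cell markers summed to 2270 to 2617 CPM in AFMC-AA-SP tissue, 1469 to 2322 CPM in AFMC and 2335 to 3513 CPM in Hollow. All 12 had a negative log2 fold change for AFMC against Hollow, with a median of -0.56, and all 12 a positive one for AFMC-AA-SP against AFMC, with a median of 0.51. Sox10, a transcription factor that defines the Schwann lineage, had 73.8, 85.7 and 74.3 CPM in AFMC-AA-SP tissue, 56.9, 67.4 and 46.1 CPM in AFMC and 84.7, 83.0 and 82.7 CPM in Hollow. Sox10 thus had the order of Ptpn4 and Nf1, with AFMC below and the other groups overlapping.

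The 8 adipocyte markers had counts in all 9 libraries and summed to 693 to 858 CPM in AFMC-AA-SP tissue, 247 to 986 CPM in AFMC and 630 to 850 CPM in Hollow. All 8 were lower in AFMC than in Hollow by fitted log2 fold change (median -0.95) and higher in AFMC-AA-SP than in AFMC (median 2.26), although the AFMC sums overlapped the rest. Adipoq, which encodes the fat cell hormone adiponectin, had 30.3, 38.9 and 48.8 CPM in AFMC-AA-SP tissue, 9.84, 6.98 and 4.12 CPM in AFMC and 20.01, 15.6 and 19.9 CPM in Hollow, the order of Cdo1 and Tmem179. Neutrophil markers ran the other way between AFMC and Hollow, at 441 to 604 CPM in AFMC-AA-SP tissue, 662 to 942 CPM in AFMC and 260 to 416 CPM in Hollow. The 6 T cell markers in the table summed to 59.3 to 62.6 CPM in AFMC-AA-SP tissue, 64.3 to 146 CPM in AFMC and 33.4 to 58.8 CPM in Hollow, and all 6 had a positive log2 fold change for AFMC against Hollow (median 1.19). The 7 skeletal muscle markers in the table were also all positive there (median 0.50), but their sums overlapped widely, at 686 to 2140 CPM in AFMC-AA-SP tissue, 233 to 2110 CPM in AFMC and 127 to 2017 CPM in Hollow. B and plasma cell markers summed to 1270 CPM in AFMC replicate 3, against 26.1 to 131 CPM in the other 8 libraries. Macrophage, fibroblast and perineurial, and endothelial markers had sums that overlapped between AFMC and Hollow. Their median log2 fold changes for AFMC against Hollow were 0.02 (4 of 9 negative), -0.03 (6 of 10 negative) and 0.15 (2 of 7 negative). Of the 9 marker lists, no gene present in the table was at 0 in all libraries. The part of gene length, of Schwann, fat, immune and muscle cell markers and of AFMC replicate 3 in the levels of the 6 genes was not tested.

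The genes with profiles most like those of the 6 were then named, by the smallest root mean square difference between centred log2 CPM profiles over the 9 libraries, among 10976 genes with a symbol and a mean of at least 5 CPM. For Nf1 these were Utrn (0.059), which encodes the dystrophin relative utrophin, and Smg1 (0.061), a kinase of nonsense-mediated decay. Utrn had 161, 160 and 175 CPM in AFMC-AA-SP tissue, 87.7, 127 and 96.5 CPM in AFMC and 187, 169 and 153 CPM in Hollow. Both are long genes, of 11.98 and 12.6 kb. For Ptpn4 they were Bbx (0.103), a high mobility group box gene, and Chl1 (0.115), an L1-family adhesion molecule. Bbx had 12.1, 11.8 and 11.5 CPM in AFMC-AA-SP tissue, 4.58, 7.35 and 5.32 CPM in AFMC and 11.8, 13.5 and 10.3 CPM in Hollow.

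For Zfp536 the nearest were Robo2 (0.220), a receptor for Slit guidance cues, and Cers4 (0.259), a ceramide synthase. Robo2 had 19.7, 22.2 and 17.9 CPM in AFMC-AA-SP tissue, 9.21, 12.5 and 7.45 CPM in AFMC and 29.1, 24.0 and 19.4 CPM in Hollow, so unlike Zfp536 its AFMC-AA-SP and Hollow libraries overlapped. For both Cdo1 and Tmem179 the nearest were Ca3 (0.291 and 0.447), a carbonic anhydrase of muscle and fat, and Adipoq (0.328 and 0.474). Ca3 had 139, 163 and 224 CPM in AFMC-AA-SP tissue, 67.6, 36.4 and 25.7 CPM in AFMC and 78.7, 65.2 and 85.8 CPM in Hollow, and its AFMC and Hollow libraries overlapped. For Alx4 they were Stc2 (0.371), a secreted glycoprotein, and Tnfsf18 (0.374), a TNF family ligand. Stc2 had 21.8, 27.0 and 20.7 CPM in AFMC-AA-SP tissue, 19.2, 25.0 and 13.6 CPM in AFMC and 53.0, 53.1 and 33.2 CPM in Hollow, so that the fibre conduits overlapped each other and Hollow stood above both. Without AFMC replicate 3, 6 of these 12 pairs were found again. Among the 6 genes themselves, Tmem179 and Alx4 were furthest apart, at 1.31.

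**Figure D4:**
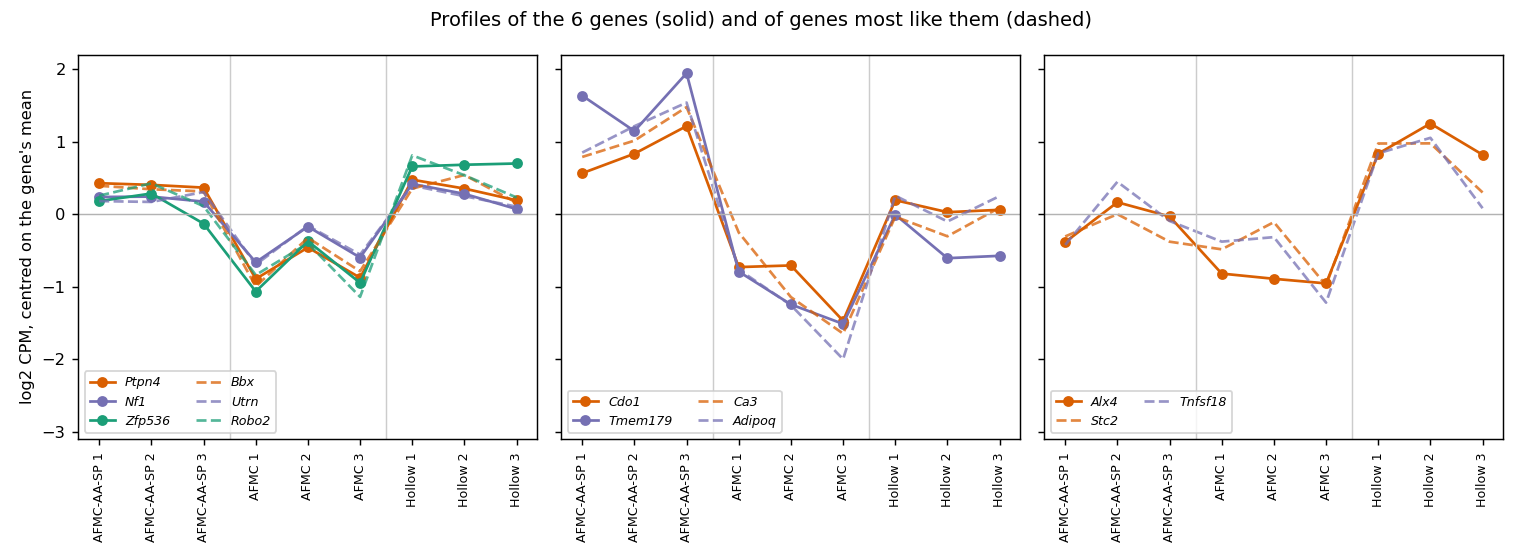
Log2 CPM of each gene in the 9 libraries (x axis), centred on its own mean over the libraries (y axis), for the 6 genes (solid lines) and for genes most like them (dashed lines). Ptpn4, Nf1 and Zfp536 share their dip in AFMC with Bbx, Utrn and Robo2, Cdo1 and Tmem179 share their peak in AFMC-AA-SP with Ca3 and Adipoq, and Alx4 peaks in Hollow with Stc2 and Tnfsf18.

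The nearest tested gene on each side of each of the 6 was compared in the same fit. None of these 12 neighbours was called by edgeR or DESeq2 in any comparison, although DESeq2 gave the sparsely counted ENSRNOG00000013097 no adjusted p in the comparisons with AFMC. At an unadjusted p under 0.05 edgeR had 2 lower (background 11.1%) and 1 higher (background 8.4%) for AFMC against Hollow. Of the 2 lower, 1 was ENSRNOG00000013097, which was tested only through its levels outside AFMC. The median log2 fold change of the 12 was 0.08 for AFMC against Hollow, -0.02 for AFMC-AA-SP against AFMC and 0.05 for AFMC-AA-SP against Hollow. Evi2b lies inside the span of Nf1 on the opposite strand, and its log2 fold change for AFMC against Hollow was 0.24 ± 0.15, where that of Nf1 was -0.73 ± 0.14. Whether the counting used the strand is not given in the sources used here, so reads of such overlapping genes may not be fully separated.

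Of the 12 neighbours, 1 had all 3 AFMC libraries below the other 6 (background 7.57%) and 1 had all 3 above (background 4.65%). The 1 below was Eif1a, a translation initiation factor beside Cdo1, with 86.4, 88.6 and 94.9 CPM in AFMC-AA-SP tissue, 79.99, 83.5 and 74.99 CPM in AFMC and 90.6, 97.5 and 85.7 CPM in Hollow. Its log2 fold change was -0.20 ± 0.08 for AFMC against Hollow and 0.18 ± 0.08 for AFMC-AA-SP against AFMC, the signs of Cdo1 at a smaller size. The largest differences among the neighbours were in the gene 1.9 kb from Tmem179 on the opposite strand. This gene, ENSRNOG00000013097, annotated as a hypothetical protein, had 17, 22 and 18 counts in AFMC-AA-SP, 10, 3 and 1 counts in AFMC and 13, 16 and 7 counts in Hollow. Its log2 fold change was 2.12 ± 0.58 for AFMC-AA-SP against AFMC and -1.41 ± 0.60 for AFMC against Hollow, the signs that Tmem179 had, but its AFMC and Hollow libraries overlapped. All 3 AFMC libraries lay under the filter at 0.48 CPM, so ENSRNOG00000013097 was tested only through its levels in the other groups. Its low AFMC level is therefore a description only. The other neighbour of Tmem179, Inf2, which encodes an actin-assembling formin, had a log2 fold change of 0.01 ± 0.12 for AFMC against Hollow. Around Alx4, Cd82 and Ext2 were at 0.15 ± 0.08 and 0.19 ± 0.07. The other neighbour of Cdo1, Atg12, of the autophagy machinery, was at 0.09 ± 0.07.

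**Figure D5:**
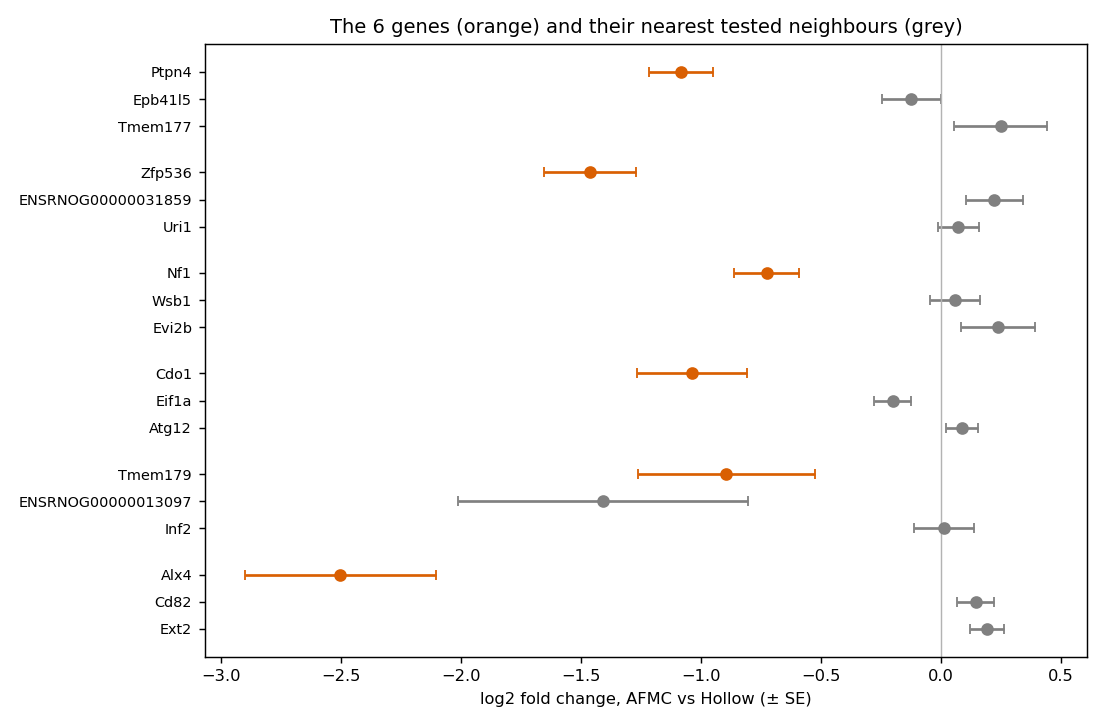
Log2 fold change of AFMC against Hollow (x axis, SE bars) for the 6 genes in orange and for the nearest tested gene on each side in grey. Apart from ENSRNOG00000013097 beside Tmem179, at -1.41 ± 0.60, the neighbours lie between -0.20 and 0.25, while the 6 genes lie between -2.50 and -0.73. ENSRNOG00000013097 and Alx4 were tested only through their levels outside AFMC.

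Genes of the pathways in which Nf1 acts were next set beside it. Of 16 other Ras GTPase-activating proteins and Ras-ERK brakes, edgeR called none in AFMC against Hollow, 4 were lower and 0 higher at an unadjusted p under 0.05 (backgrounds 11.1% and 8.4%), and DESeq2 called 1 lower (background 4.34%). The list had a median log2 fold change of -0.17, with 12 genes negative and 4 positive, which became -0.07 once gene length was offset, or -0.09 without AFMC replicate 3. Rasa1, the p120 Ras GTPase-activating protein, had 145, 132 and 161 CPM in AFMC-AA-SP tissue, 101, 114 and 74.4 CPM in AFMC and 147, 132 and 145 CPM in Hollow, the order of Nf1. Its log2 fold change for AFMC against Hollow was -0.55 ± 0.15 (edgeR quasi-likelihood test, adjusted p = 0.126). Rasa2 was at -0.34 ± 0.11 and Rasal2 at -0.47 ± 0.19, while Spred1, which recruits neurofibromin to the membrane, was at -0.19 ± 0.13. In AFMC-AA-SP against AFMC, DESeq2 called 2 of the 16 higher (background 3.41%), Rasa1 at 0.60 ± 0.15 and Rasa2 at 0.41 ± 0.11.

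The cascade that neurofibromin restrains and its output genes were set beside Nf1 in the same way. Of 15 tested genes of the Ras-ERK cascade, edgeR and DESeq2 called none in AFMC against Hollow, and 3 were lower and 0 higher at an unadjusted p under 0.05 (backgrounds 11.1% and 8.4%), with a median log2 fold change of 0.04. These 3 were Braf (-0.45 ± 0.17), a kinase below Ras, Nras (-0.23 ± 0.10), a Ras protein, and Shoc2 (-0.19 ± 0.07), a scaffold for Ras signalling. Of 13 ERK output genes none was called, 0 were lower and 1 higher at an unadjusted p under 0.05 (backgrounds 11.1% and 8.4%), and the median was -0.08. That 1 was Ier3, an immediate early gene, with means of 29.1 ± 5.3 CPM in AFMC-AA-SP tissue, 37.6 ± 6.5 CPM in AFMC, and, lowest, 27.0 ± 4.9 CPM in Hollow (SD, n = 3 each). Egr1, another immediate early gene, was at -0.48 ± 0.24.

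The relatives of Ptpn4 lay on both sides of 0. Of 15 other tested non-receptor tyrosine phosphatases, 4 were lower and 3 higher in AFMC than in Hollow at an unadjusted p under 0.05 (backgrounds 11.1% and 8.4%), edgeR called none, DESeq2 called 2 lower and 2 higher (backgrounds 4.34% and 2.93%), and the median log2 fold change was 0.03. Ptpn21 was at -0.45 ± 0.12 and Ptpn9 at -0.24 ± 0.07. Ptpn1, a phosphatase of insulin receptor signalling, was at 0.52 ± 0.14, with 120, 113 and 120 CPM in AFMC-AA-SP tissue, 141, 137 and 208 CPM in AFMC and 109, 115 and 115 CPM in Hollow, its highest value being in AFMC replicate 3. Ptpn3, a relative of Ptpn4 with the same kinds of domain, was at -0.33 ± 0.23, where Ptpn4 was at -1.08 ± 0.13.

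Other genes of cysteine and taurine metabolism had a median near that of all genes. Of 18 tested, edgeR called none, 2 were lower and 1 higher in AFMC than in Hollow at an unadjusted p under 0.05 (backgrounds 11.1% and 8.4%), DESeq2 called 1 lower and 1 higher (backgrounds 4.34% and 2.93%), and the median log2 fold change was -0.05. Gclm, the modifier subunit of the enzyme that commits cysteine to glutathione, had 15.2, 14.8 and 15.5 CPM in AFMC-AA-SP tissue, 13.4, 12.8 and 13.4 CPM in AFMC and 18.8, 17.6 and 18.2 CPM in Hollow. These groups did not overlap, and the log2 fold change for AFMC against Hollow was -0.46 ± 0.08 (edgeR quasi-likelihood test, adjusted p = 0.102). Cth, which makes cysteine from cystathionine, was at -0.61 ± 0.23, and Ethe1, a mitochondrial persulfide dioxygenase, at 0.41 ± 0.11. Csad, which takes the product of Cdo1 towards taurine, was at -0.16 ± 0.12, and Ado, the dioxygenase that makes hypotaurine from cysteamine, at -0.08 ± 0.11. Cdo1 itself was at -1.04 ± 0.23.

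For Alx4, 9 of 18 limb mesenchyme and Alx-related transcription factors were tested. Of the 9, edgeR called none, 1 was lower and 0 higher in AFMC than in Hollow at an unadjusted p under 0.05, a share no greater than the backgrounds of 11.1% and 8.4%, DESeq2 called 1 lower (background 4.34%), and the median log2 fold change was -0.13. The 1 gene was Prrx1, a homeodomain factor of connective tissue progenitors, with 167, 170 and 186 CPM in AFMC-AA-SP tissue, 112, 151 and 127 CPM in AFMC and 187, 178 and 164 CPM in Hollow. Prrx1 was therefore low in AFMC and overlapping in the other groups, at -0.44 ± 0.11 for AFMC against Hollow (edgeR quasi-likelihood test, adjusted p = 0.117) and 0.42 ± 0.11 for AFMC-AA-SP against AFMC, where DESeq2 called it too. Gli3, a Hedgehog pathway factor, was at -0.38 ± 0.23 and Prrx2 at 0.22 ± 0.17 for AFMC against Hollow.

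For Zfp536, 17 genes were tested, made up of genes of retinoic acid handling and the relative Zfp516. None was called by edgeR in AFMC against Hollow, 3 were lower and 2 higher at an unadjusted p under 0.05 (backgrounds 11.1% and 8.4%), DESeq2 called 1 lower (background 4.34%), and the median log2 fold change was -0.04. That 1 was Aldh1a3, which makes retinoic acid, with 25.9, 34.9 and 28.6 CPM in AFMC-AA-SP tissue, 23.3, 26.3 and 20.2 CPM in AFMC and 32.7, 35.0 and 30.7 CPM in Hollow. AFMC and AFMC-AA-SP overlapped in it, and AFMC lay below Hollow, at -0.49 ± 0.13. Zfp516, a relative of Zfp536, was kept on this list as a relative and not as a retinoid gene. It is counted among the 17 and among the 3 lower. It had 52.9, 56.1 and 54.9 CPM in AFMC-AA-SP tissue, 39.4, 45.9 and 44.9 CPM in AFMC and 56.5, 52.5 and 49.2 CPM in Hollow, so that AFMC lay below both other groups, at -0.28 ± 0.08 against Hollow, where Zfp536 was at -1.46 ± 0.19. Crabp1, a retinoic acid binding protein and among the 2 higher, was at 1.83 ± 0.71 from means of 0.887 CPM in AFMC and 0.254 CPM in Hollow. No Hollow library reached the filter at 0.48 CPM, so Crabp1 was tested only through its levels outside Hollow. Its AFMC and Hollow libraries overlapped, the lowest in AFMC being at 0.216 CPM and the highest in Hollow at 0.321 CPM. The higher AFMC level of Crabp1 is therefore a description only. For Tmem179 the relative Tmem179b was at 0.34 ± 0.10, on the other side of 0 from Tmem179 at -0.89 ± 0.37.

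For AFMC against Hollow, the length offset moved the median nearer to 0 only in the list of Ras GTPase-activating proteins and brakes. In every other pathway list it moved the median further from 0, the most for limb mesenchyme, from -0.13 to -0.21. Some of these moves were small, such as from 0.03 to 0.04 for non-receptor tyrosine phosphatases. The median of all tested genes went from 0.01 to 0.02. Across these 7 pathway lists edgeR called no gene in AFMC-AA-SP against AFMC. Their median log2 fold changes ran from -0.05 (retinoic acid handling) to 0.09 (Ras GTPase-activating proteins and brakes), where the 6 genes had a median of 1.19. With the length offset the list medians ran from -0.11 (non-receptor tyrosine phosphatases) to 0.06 (cysteine and taurine metabolism). The Ras GTPase-activating proteins and brakes were then at 0.004, and also at 0.004 without AFMC replicate 3. Of the 103 tested genes of the 7 lists, DESeq2 called 4 higher in AFMC-AA-SP than in AFMC, near the background of 3.41%, and none lower (background 0.93%). The 4 were Rasa1, Rasa2, Prrx1 and Zfp516. Against Hollow, AFMC-AA-SP had no gene called by edgeR or DESeq2 in any of the 7 lists, and the medians ran from -0.11 (limb mesenchyme) to -0.01 (cysteine and taurine metabolism).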

How the data were processed

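Per the labels, poly(A) RNA from 9 samples was made into strand-specific libraries (dUTP method) and read from both ends. The deposited table holds counts, which per the file headers were not scaled, and the authors' FPKM, a value scaled by library total and gene length: the gene length it implies varied by under 5 percent between libraries in all 14877 genes with enough counts to compute it. Aligner, counter and build: not given in the sources used here.

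The deposited counts were fitted with edgeR 4.0.16 under R 4.3.3 (filterByExpr, TMM scaling, quasi-likelihood test with 1 term per group over all 9 libraries, Benjamini-Hochberg adjustment over 15659 genes, threshold 0.05, two-sided). CPM use TMM-scaled totals. Standard errors were taken as the absolute log2 fold change over the root of its F statistic. DESeq2 1.42.0 and limma 3.58.1 (on log2 FPKM) were alternatives, as were other filters and scalings, a length offset (a smoothed curve of each library's deviation on log2 gene length) and leaving out each library. The fit was tested on simulated data. No 2 libraries agreed within sampling noise.

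The 6 genes, the pathway and marker lists and the alternatives were chosen with earlier results of these data known. Other named genes are, for each of the 6, the 2 with the most similar profile, the nearest tested gene on each side and the closest relatives, and for each pathway list the 3 of smallest edgeR p in AFMC against Hollow. Promoters come from RefSeq (GRCr8), which matched 3 of the 6 genes.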

Additional observations from a re-analysis of the deposited data

How the results depend on the processing

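Over 21 alternatives and 374 values of the 6 genes, 16 values moved by more than the spread between replicates and 2 changed sign, those of Ptpn4 (without Hollow replicate 3) and Nf1 (without Hollow replicate 1) for AFMC-AA-SP against Hollow, both near 0. On log2(FPKM + 1) with limma the median of the 6 genes was -0.71 for AFMC against Hollow and 0.72 for AFMC-AA-SP against AFMC, a scale that compresses low genes, and on log2(FPKM + 0.1) the second was 1.03. With AFMC replicate 3 left out and the length offset added, the first was -0.91. The count of called genes, 0 in every comparison with edgeR, was 1013 for AFMC against Hollow, 570 for AFMC-AA-SP against AFMC and 8 for AFMC-AA-SP against Hollow with DESeq2. Leaving out 1 library gave 0 to 894, 0 to 579 and 0 to 1 in the same comparisons. The upper ends of the first 2 came without AFMC replicate 2, when 5 of the 6 genes were called in each. Of 15897 genes tested there, 677 were called lower in AFMC than in Hollow and 506 higher in AFMC-AA-SP than in AFMC. With no filter on low counts, 6 of 21486 genes were called for AFMC-AA-SP against AFMC, 3 of them among the 6 genes. Since the 6 genes were picked for this order in these libraries, no weight attaches to how many of them were called. On log2(FPKM + 0.1) 1 gene was called for AFMC against Hollow and 1 for AFMC-AA-SP against Hollow, and on log2(FPKM + 1) 1 for AFMC-AA-SP against Hollow. The length offset without AFMC replicate 3 called 2 for AFMC-AA-SP against AFMC and 1 for AFMC-AA-SP against Hollow. The cause of these changes was not tested.

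Replicate numbers are shared between groups, but not every same-numbered pair had a correlation of deviations over 0.1 (they ran from -0.05 to 0.14), so the numbers were not taken as pairs. As a hint the other way, 6 of 9 libraries correlated best with a library of their own number. With the number as a replicate block, 1 gene was called for AFMC against Hollow and 2 for AFMC-AA-SP against AFMC, and the same counts came with the length offset added.

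Depth limits Alx4, with 2 to 3 counts in each AFMC library: it was not tested with a filter of 1 CPM, nor in a fit of AFMC-AA-SP and AFMC alone.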
